A study of Rattus norvegicus with 3 samples.

Results

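The BCL2 family genes analysed here are the members of a list of 10 apoptosis regulators whose symbol matched a gene name in all 3 FPKM tables. There were 8 of them among 30957 genes: the effectors Bax and Bak1, the protectors Bcl2, Bcl2l1 and Bcl2l2, and the BH3-only genes Bcl2l11, Bid and Bad. Mcl1, a protector, and Bbc3, a BH3-only gene, were not analysed here, so the sums for protectors and for BH3-only genes each cover 3 genes. All 8 had a mean of 1 FPKM or more (fragments per kilobase of gene and 1000000 fragments, a level scaled by gene length).

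Messenger RNA of the motor cortex was sequenced from 3 male Sprague-Dawley rats, numbered 19, 35 and 70, which had undergone cerebral ischemia and reperfusion, a stop and return of the blood supply to the brain. All carry the label 8 weeks, which could be an age or a time after the operation, and the labels do not say how the ischemia was produced. The 3 rats form 1 group with no control, so values are compared between the rats and between genes within a rat. Each rat was taken as a separate animal from its own number. Values for the 3 rats are given in the order 19, 35 and 70.

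Proteins of the BCL2 family decide whether the outer membrane of the mitochondrion stays closed. BAX and BAK, once active, assemble into pores that let cytochrome c out and so start the caspases. BCL2, BCL-XL (from Bcl2l1), BCL-W (from Bcl2l2) and MCL1 hold them back, and BH3-only proteins such as BIM (from Bcl2l11), BID and BAD bind the protectors or, for BIM and BID, also activate the effectors. Neurons of the adult brain are known to rest mainly on BCL-XL, and loss of Bax protects many neurons after injury. Much of this control acts on the proteins, by cleavage of BID and phosphorylation of BAD, and is not seen in transcript levels.

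Depth was recovered from the values: at 1 FPKM, a 1 kb gene stood for 15.6, 16.5 and 16.0 fragments in the 3 libraries. The library of rat 35 stood apart in its cell type markers. The 7 neuronal markers summed to 1238, 50.3 and 1547 FPKM. All 7 were lowest in rat 35, as were 36.5% of all genes averaging at least 1 FPKM. The 7 markers of microglia and phagocytes summed to 741, 3338 and 705 FPKM and all were highest in rat 35, as were 45.4% of all genes. The 6 leukocyte markers summed to 199, 2360 and 380 FPKM, mostly from Lyz2 (183, 2231 and 369), a gene that phagocytes also express, with the B cell gene Ms4a1 listed at 0 in rats 19 and 70 and Cd79a at 0 in rat 70. The 5 fibroblast markers summed to 232, 2612 and 211 FPKM, with Col1a2 listed at 0 in every rat, which can be a failed estimate. Astrocyte markers (5 genes) summed to 2756, 845 and 1544 FPKM, with much of it from Gfap (1878, 564 and 688). They did not share 1 order, as 3 were lowest in rat 35 and 2, Aqp4 and Aldh1l1, in rat 70. Oligodendrocyte markers (5 genes) summed to 3951, 3185 and 5134, and the 3 endothelial markers analysed to 127, 176 and 96.9 FPKM. In tissue RNA, fewer cells of a type cannot be told apart from less RNA per cell, and the part of these markers in the results for the BCL2 family was not tested.

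Promoter sequences were matched for 7 of the 8 genes, in 10 windows, of which 4 belong to Bcl2l1 and partly overlap; Bax had none in the table used. The windows are shown for the 3 genes that were highest in rat 35 by more than 2-fold over the lowest rat on FPKM + 1 (Bid, Bak1 and Bcl2l11) and for Bcl2l2, which was lowest there. They are RefSeq promoter windows of build GRCr8, 250 bases before to 50 after the start site, in the direction of transcription: Bid at chr4:155808270-155808569 (minus strand), Bak1 at chr20:5110925-5111224 (minus), Bcl2l11 at chr3:135819792-135820091 (plus) and Bcl2l2 at chr15:32326511-32326810 (plus). Capitals mark matches to the short motifs described after them.
Bid: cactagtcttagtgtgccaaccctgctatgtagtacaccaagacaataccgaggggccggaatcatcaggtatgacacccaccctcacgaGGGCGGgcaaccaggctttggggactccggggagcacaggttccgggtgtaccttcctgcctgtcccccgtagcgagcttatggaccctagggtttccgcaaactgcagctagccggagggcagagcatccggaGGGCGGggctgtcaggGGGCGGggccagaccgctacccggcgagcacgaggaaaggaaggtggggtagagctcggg
Bak1: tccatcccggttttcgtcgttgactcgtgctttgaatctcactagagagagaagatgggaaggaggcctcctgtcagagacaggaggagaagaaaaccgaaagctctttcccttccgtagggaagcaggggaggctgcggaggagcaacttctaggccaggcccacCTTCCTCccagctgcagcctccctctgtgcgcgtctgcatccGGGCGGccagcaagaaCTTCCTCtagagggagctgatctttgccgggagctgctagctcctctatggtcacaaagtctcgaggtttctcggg
Bcl2l11: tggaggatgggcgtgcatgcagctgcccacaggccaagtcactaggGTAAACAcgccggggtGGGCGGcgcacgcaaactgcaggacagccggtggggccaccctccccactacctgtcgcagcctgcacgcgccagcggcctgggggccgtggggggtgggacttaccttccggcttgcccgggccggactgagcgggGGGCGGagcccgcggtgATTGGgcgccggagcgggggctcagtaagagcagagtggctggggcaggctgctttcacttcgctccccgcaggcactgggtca
Bcl2l2: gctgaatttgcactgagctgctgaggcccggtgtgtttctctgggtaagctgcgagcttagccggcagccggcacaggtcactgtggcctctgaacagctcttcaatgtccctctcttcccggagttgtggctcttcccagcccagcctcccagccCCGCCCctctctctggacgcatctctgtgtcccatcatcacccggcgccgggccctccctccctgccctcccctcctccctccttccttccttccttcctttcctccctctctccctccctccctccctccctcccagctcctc

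The motifs were searched on both strands: the GC box GGGCGG, the CCAAT box CCAAT, the TATA box TATAAA, the FOXO element GTAAACA, the STAT element TTCNNNGAA, the AP-1 element TGANTCA, the PU.1 element GAGGAAG and the CRE half-site TGACG. No match of one motif overlapped a match of another in the windows of the family. A GC box was found in 5 of the 10 windows of the family, and 33.1% of all 33469 promoter windows of this length hold it. Bid held 3 GC boxes, at positions -160, -26 and -10 from the start site. Bcl2l11 held 2, at -188 and -51, with an inverted CCAAT box at -34 and a FOXO element at -204. The FOXO element occurs in 3.78% of all windows and was also found, inverted, in that of Bad at -118. PU.1 elements, present in 12.4% of all windows, were found in 5 of the 10 windows (Bak1, Bcl2, Bad and 2 of Bcl2l1), with 2 in Bak1. CCAAT boxes were in 3 of the 10 (37.5% of all windows), STAT elements in 3 (8.87%) and TATA boxes in 1 (14.2%). The STAT elements and 1 CCAAT box of Bcl2l1 lie where 2 of its windows overlap and are counted in both. By gene, CCAAT boxes and STAT elements were each found for 2 of the 7. No AP-1 element (7.33% of all windows) and no CRE half-site (21.2%) was found in the 10 windows. The Bcl2l2 window held 1 inverted GC box at -94 and no other match. GC content was 63.3% for Bid, 57.7% for Bak1, 71.0% for Bcl2l11 and 64.3% for Bcl2l2, against a median of 51.7% over all windows. A match is a string of letters and not a bound site.

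The effectors differed between rats in the same direction only in part. Bax (ENSRNOG00000020876, chromosome 1, 101451802 to 101457207, minus strand, Rnor 6.0) was at 37.9, 35.3 and 19.3 FPKM in rats 19, 35 and 70 (30.8 ± 10.05, SD, n = 3). These values rest on 808, 796 and 425 fragments. Their exact 95% Poisson intervals, which cover counting error only, were 35.3 to 40.6, 32.9 to 37.8 and 17.5 to 21.2 FPKM, so rats 19 and 35 overlapped and rat 70 was lower than both. Bak1 (ENSRNOG00000000485, chromosome 20, 5609629 to 5618221, minus strand) was at 18.7, 33.9 and 9.77 FPKM (20.8 ± 12.2), on 550, 1053 and 296 fragments. Its intervals did not overlap between any rats, and rat 35 was 3.47-fold above rat 70. Bax made up 66.9%, 51.0% and 66.4% of the summed effector FPKM, so that in rat 35 the effectors were at nearly equal levels (ratio of Bax to Bak1 1.04, against 2.02 in rat 19 and 1.98 in rat 70).

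Among the protectors, Bcl2l2 ran opposite to Bak1. Bcl2l2 (ENSRNOG00000015732, chromosome 15, 33544312 to 33549164, plus strand) was at 38.8, 18.3 and 61.4 FPKM (39.5 ± 21.6), on 2126, 1060 and 3469 fragments. The counting intervals did not overlap: rat 70 was highest, rat 35 lowest, and rat 70 was 3.36-fold above rat 35. Bcl2l2 was the only one of the 8 that was lowest in rat 35, the rat in which all 7 neuronal markers were lowest. Of all genes averaging at least 1 FPKM, 36.5% were lowest in rat 35.

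Bcl2l1 (ENSRNOG00000007946, chromosome 3, 148259596 to 148313810, minus strand) was at 14.7, 21.0 and 20.2 FPKM (18.6 ± 3.45), on 1479, 2240 and 2104 fragments. Rats 35 and 70 overlapped in their counting intervals (20.1 to 21.9 and 19.4 to 21.1 FPKM), and rat 19 was lower (13.9 to 15.4). The values do not separate its long, protective transcript from the short one, which promotes cell death. A gene on the opposite strand, AABR07054332.1, overlaps its span by 933 bp and was at 23.6, 31.2 and 14.1 FPKM, and since no source used here says whether counting used strand, reads of the overlap cannot be told apart.

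Bcl2 itself was the lowest of the 8 genes in every rat. Bcl2 (ENSRNOG00000002791, chromosome 13, 26605426 to 26769374, minus strand) was at 1.36, 2.47 and 1.11 FPKM (1.65 ± 0.725), on only 25, 48 and 21 fragments. Its intervals were 0.882 to 2.01, 1.82 to 3.28 and 0.687 to 1.70 FPKM, so rat 35 was above rat 70 beyond counting error and overlapped rat 19. Of all genes averaging at least 1 FPKM, 4.995%, 16.0% and 5.69% lay below it in rats 19, 35 and 70. Bcl2l2 supplied 70.8%, 43.8% and 74.2% of the summed protector FPKM, Bcl2l1 26.7%, 50.3% and 24.4%, and Bcl2 2.49%, 5.92% and 1.34%.

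The BH3-only genes differed most and least of the family. Bid (ENSRNOG00000012439, chromosome 4, 153442218 to 153465203, minus strand), whose protein links death receptors to mitochondria, was at 12.1, 32.0 and 6.51 FPKM (16.9 ± 13.4), on 375, 1050 and 208 fragments. The counting intervals of the rats did not overlap, and rat 35 was 2.65-fold above rat 19 and 4.92-fold above rat 70. Bcl2l11 (ENSRNOG00000016551, chromosome 3, 120726906 to 120764192, plus strand) was at 2.98, 10.1 and 2.97 FPKM (5.34 ± 4.10), on 269, 963 and 277 fragments. Rats 19 and 70 were nearly equal, and rat 35 was 3.38-fold above rat 19 and 3.39-fold above rat 70. Bad (ENSRNOG00000021147, chromosome 1, 222198534 to 222207453, plus strand) was at 24.7, 28.4 and 31.0 FPKM (28.0 ± 3.16), on 385, 468 and 498 fragments. Its highest and lowest rats, 70 and 19, were 1.25-fold apart, the smallest ratio of the 8.

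**Figure D1:**
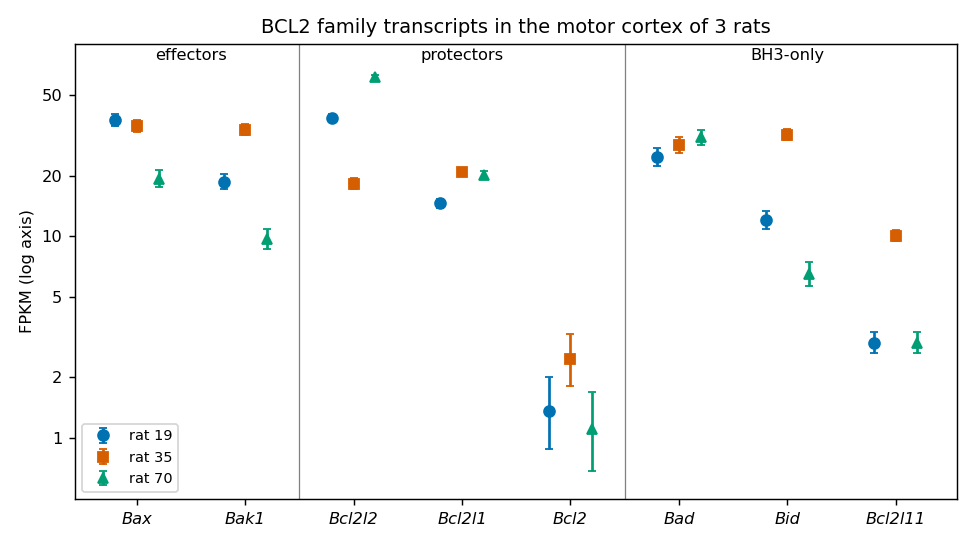
FPKM (log axis) of the 8 BCL2 family genes in each rat; points are the deposited values and bars exact 95% Poisson intervals on the recovered fragments, which cover counting error only. Rat 35 is highest for Bak1, Bid and Bcl2l11 and lowest for Bcl2l2, and Bcl2 is the lowest gene in every rat.

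With 8 genes, the counts by rat were read beside those of all 14134 genes averaging at least 1 FPKM. On the log2(FPKM + 1) scale, where differences of low genes are understated, 4 of the 8 (Bak1, Bcl2l2, Bcl2l11 and Bid) differed by more than 2-fold between the highest and the lowest rat, and 42.5% of all genes did so. The median of the highest minus the lowest rat was 1.21 (log2) over the 8 genes, beside 0.86 over all genes. Without rat 35 these medians were 0.54 and 0.37, and without rat 70 they were 0.69 and 0.52. Of the 8, 5 were highest in rat 35 (Bak1, Bcl2, Bcl2l1, Bcl2l11 and Bid), against 45.4% of all genes, 1 was highest in rat 19 (Bax; 24.8% of all genes) and 2 in rat 70 (Bcl2l2 and Bad; 29.8%). In rat 70, 5 of the 8 were lowest (Bax, Bak1, Bcl2, Bcl2l11 and Bid; 44.2% of all genes), and 2 were lowest in rat 19 (Bcl2l1 and Bad; 19.3%). With 8 genes these shares are read as no more than a description. Without rat 35, none of the 8 and 11.0% of all genes were more than 2-fold apart. After each rescaling of the libraries, Bcl2l1 was highest in rat 70 and Bcl2l11 lowest in rat 19, while the other highest and lowest rats did not change.

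**Figure D2:**
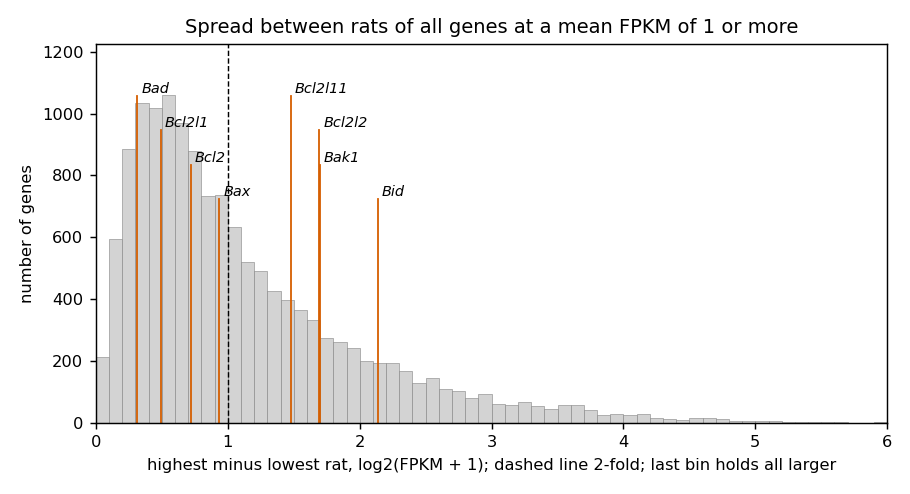
Number of genes by the difference of log2(FPKM + 1) between the highest and the lowest rat, for 14134 genes (bars), with the 8 BCL2 family genes as marked lines and 2-fold as a dashed line. Bid lies farthest right at 2.14, and Bad farthest left at 0.32.

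Within each rat, the balance of the roles differed. FPKM is per gene length, so levels of different genes can be set side by side, as far as the authors' gene lengths hold. The summed effectors were at 56.6, 69.2 and 29.1 FPKM (51.6 ± 20.5, SD, n = 3) and the summed protectors at 54.8, 41.7 and 82.7 FPKM (59.8 ± 20.9). Effectors over protectors therefore gave a ratio of 1.03 in rat 19, 1.66 in rat 35 and 0.352 in rat 70, a 4.71-fold range. On the log2 scale the ratios were 0.05, 0.73 and -1.51 (-0.24 ± 1.15), so that the mean is small beside the spread of the rats. For the genes summed here, protectors had the highest sum in rat 70, effectors led narrowly in rat 19 and BH3-only genes led narrowly in rat 35. Without rat 35, the mean log2 ratio was -0.73.

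The summed BH3-only genes were at 39.8, 70.5 and 40.5 FPKM (50.3 ± 17.5). Over protectors their ratio was 0.726, 1.69 and 0.489, or -0.46, 0.76 and -1.03 on the log2 scale (-0.25 ± 0.91). Effectors over BH3-only genes gave 1.42, 0.981 and 0.719, or 0.51, -0.03 and -0.48 on the log2 scale (0.0011 ± 0.49). Without rat 35 the means were -0.75 and 0.016. Both ratios to the protectors were highest in rat 35 and lowest in rat 70. This order holds only for the genes summed here. Not in the sums are Bok, an effector relative (10.1, 14.1 and 80.2 FPKM), and Bcl2a1, a protector (14.9, 91.4 and 4.71). Their differences between rats exceed those of the sums and change the order. In rat 35, Bcl2a1 alone exceeds the summed protectors (41.7 FPKM) and also the summed effectors (69.2). In rat 70, Bok exceeds the summed effectors (29.1). With both added, effectors would lie above protectors in rat 70 and below them in rat 35. With Bcl2a1 added to the protectors, the ratio of BH3-only genes to protectors would no longer be highest in rat 35. The values of such ratios were not computed, and Mcl1 is missing too. Among the protectors summed, Bcl2l2 has the largest weight in rats 19 and 70, and Bcl2l1 in rat 35. With the gene of the highest mean FPKM over the rats left out of each role (Bax, Bcl2l2 and Bad), the log2 ratio of effectors to protectors was 0.23, 0.53 and -1.13, in the same order of rats. As an unweighted mean of log2(FPKM + 1) per role, it was 1.28, 1.64 and 0.071, again in that order but above 0 in all rats, because Bcl2 counts there as much as the abundant protectors.

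The composition of the BH3-only sum differed too. Bad supplied 62.1%, 40.3% and 76.6% of it, Bid 30.4%, 45.4% and 16.1%, and Bcl2l11 7.48%, 14.3% and 7.35%. Bad was the most abundant BH3-only gene in rats 19 and 70, while in rat 35 the counting intervals of Bid and Bad overlapped. The 8 genes together were at 151.2, 181.4 and 152.3 FPKM, of which protectors made up 36.3%, 23.0% and 54.3% and effectors 37.4%, 38.1% and 19.1%.

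**Figure D3:**
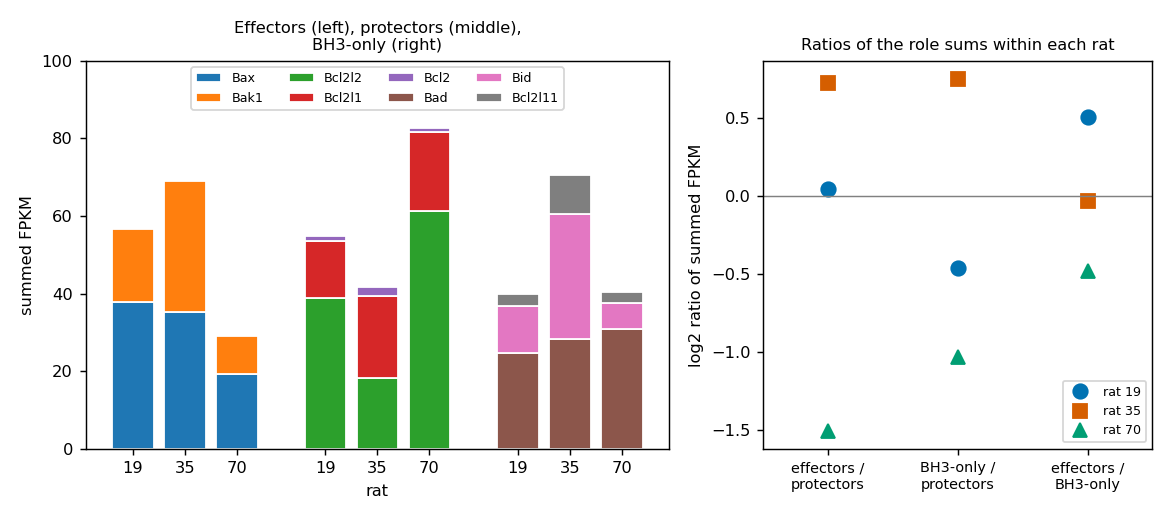
Left, FPKM of the genes of each role stacked for each rat (bars from 0); right, log2 ratios of the role sums within each rat, with 0 as equal sums. For the genes summed, protectors are highest in rat 70 (82.7 FPKM), and both ratios to the protectors are highest in rat 35. Bok and Bcl2a1 are not in the sums, and with them added neither ratio to the protectors would be highest in rat 35.

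The order of the 8 genes was partly shared. Bcl2l2 ranked 1 in rats 19 and 70 and 6 in rat 35, where Bax, Bak1 and Bid led. In rat 35 the counting intervals of Bax, Bak1 and Bid overlapped, so that their order is not settled, as did those of Bid and Bad there, those of Bcl2l2 and Bax in rat 19 and of Bcl2l1 and Bax in rat 70. Bcl2l11 ranked 7 and Bcl2 last in every rat. Of 28 pairs of genes, 17 had the same order in all rats, and 13 of these involve Bcl2 or Bcl2l11. The other 4 were Bax above Bak1, Bax above Bid, Bak1 above Bid and Bad above Bcl2l1. The ratio of Bax to Bcl2, often used as an index of apoptosis, was 27.8, 14.3 and 17.4, on the few fragments of Bcl2, and the ratio of Bax to Bcl2l1 was 2.58, 1.68 and 0.956. Bad over Bcl2l1 was the steadiest ratio, at 1.69, 1.35 and 1.53. With 3 rats, an exact permutation test by sign flips (two-sided) cannot give a pair less than p = 0.25, and the smallest p after Benjamini-Hochberg adjustment over the 28 pairs was 0.41 (17 pairs, each in 3 of 3 rats).

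Profiles over 3 rats were matched as the Euclidean distance between deviations of log2(FPKM + 1) from the mean of the rats. Within the family, Bcl2l1 and Bad were nearest (0.21), followed by Bak1 and Bid (0.39). Among 9564 other annotated genes averaging at least 5 FPKM, those nearest to Bax were Zfp347 (a zinc finger protein gene; 12.8, 11.9 and 6.22 FPKM), Hnrnpa2b1 (an RNA-binding protein gene; 367, 345 and 191) and Mus81 (an endonuclease subunit gene; 12.7, 11.8 and 6.10), with distances of 0.0048, 0.012 and 0.013. Nearest to Bcl2 were Snx12 (a sorting nexin gene; 13.1, 19.8 and 11.5), Nsmaf (9.37, 14.2 and 8.19) and Tpra1 (23.0, 33.9 and 20.3), all at 0.0075 to 0.0082. Each match rests on only 3 values, and those to Bcl2 also on its 21 to 48 fragments. At the low level of Bcl2, the use of FPKM + 1 shrinks its differences. In FPKM, Bcl2 was 2.23-fold higher in rat 35 than in rat 70, a larger ratio than in the genes matched to it. Within a wider distance of 0.1 lay 35 of the 9564 genes for Bax and 158 for Bcl2, and the genes named are only the nearest of these.

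Other genes of the apoptosis pathway were described from 5 lists with 40 genes, of which 39 were analysed and 37 had a mean of 1 FPKM or more. Of these 37, 28 (75.7%) were highest in rat 35, beside 45.4% of all genes, 23 were lowest in rat 70, beside 44.2%, and 22 (59.5%) differed by more than 2-fold between rats, beside 42.5%. Between rats 19 and 70 alone, 7 of the 37 did, beside 11.0% of all genes. The lists differed in how they were spread over the rats.

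Among the caspases reported, proteases of apoptosis and inflammation, 7 genes had 1 FPKM or more, 6 of them highest in rat 35 (45.4% of all genes) and all 7 lowest in rat 70 (44.2%). Casp1, the inflammasome caspase, was at 12.8, 26.3 and 4.68 FPKM, Casp4 at 17.5, 25.4 and 10.8, and Casp12 at 4.01, 7.99 and 1.56. Casp9, named after its values had been seen, was nearly level at 10.4, 9.19 and 9.13, a 1.13-fold range, and highest in rat 19. Casp6 was listed at 0 in every rat, which can be a failed estimate. Rat 35 also had the highest phagocyte markers, and the part of those cells was not tested.

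Genes of the death receptor arm, upstream of Bid, were highest in rat 35 in 7 of 7 cases, beside 45.4% of all genes. Tnfrsf1a, the main TNF receptor, was at 27.1, 81.7 and 23.7 FPKM, and its adaptor genes Tradd at 6.03, 17.3 and 5.42 and Ripk1 at 8.31, 15.4 and 6.14. All 5 genes of inhibitors of apoptosis were highest in rat 35 as well, against the same 45.4%, with Birc2 at 13.7, 17.3 and 12.5, Birc3 at 1.70, 4.60 and 0.91, and Birc5, which is also a gene of dividing cells, at 13.5, 27.7 and 3.997.

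Of 9 genes that act at or after the opening of the mitochondrion, 2 were more than 2-fold apart, beside 42.5% of all genes, and 5 were highest in rat 35, beside 45.4%. Their median difference between rats was 0.65 (log2), beside 0.86 over all genes. Cycs, which encodes cytochrome c, was at 207, 154 and 241 FPKM, on the more abundant of the 2 entries with this symbol, so its value is uncertain if reads were shared. The outer membrane channel genes Vdac1 and Vdac3 were at 115, 54.9 and 110 and at 176, 122 and 138, both lowest in rat 35. The third channel gene, Vdac2, named after its values had been seen, was highest there, at 89.5, 97.0 and 77.7. The protease gene Htra2 was at 32.5, 33.2 and 16.0.

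The remaining relatives of the family had no shared order of rats. Of 9 further genes at 1 FPKM or more, 5 were highest in rat 35 (45.4% of all genes), 4 in rat 70 (29.8%), and 6 were more than 2-fold apart (42.5%). Bcl2a1, a protector of blood cells, was at 14.9, 91.4 and 4.71 FPKM, a 19.4-fold range and far wider than that of any of the 3 protectors above. Bok, an effector relative of Bax and Bak1, was at 10.1, 14.1 and 80.2, highest in rat 70, where Bax and Bak1 were lowest. Bnip3l, a receptor of mitophagy, was steady at 40.9, 43.8 and 38.4.

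**Figure D4:**
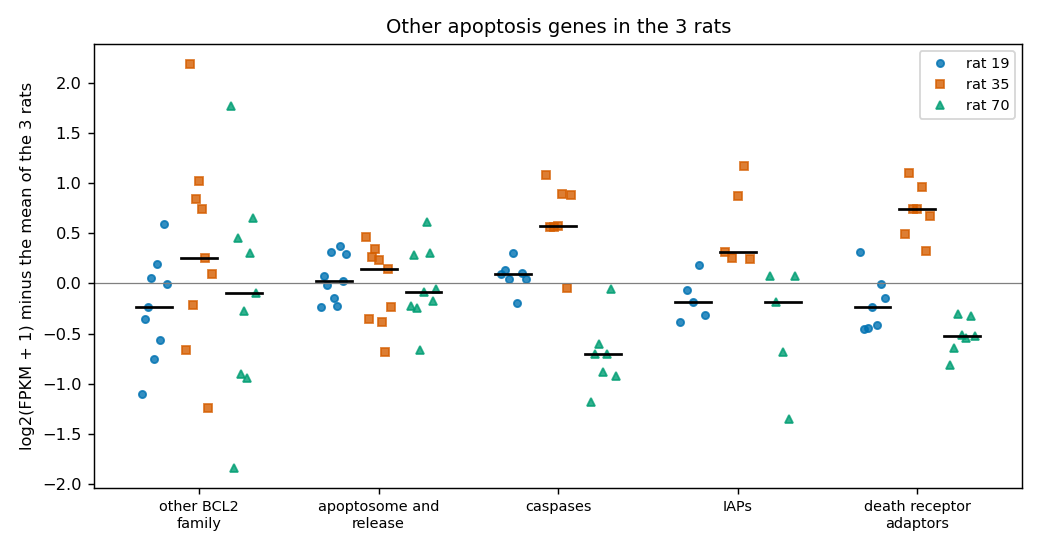
Difference of log2(FPKM + 1) from the mean of the 3 rats for the 37 further apoptosis genes averaging at least 1 FPKM, by list; each point is 1 gene in 1 rat and black lines are medians of a list. Caspase and death receptor genes lie mostly above 0 in rat 35 and below 0 in rat 70, while the other BCL2 family genes spread widely.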

How the data were processed

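The authors' design text says that fragments were counted per gene, normalized and turned into FPKM by a Perl script; the deposited files hold FPKM for 30957 Ensembl genes in each of 3 rats. The submitters' processing notes name HISAT2 2.0.4, StringTie 1.3.0 and Rnor 6.0 but not what each did. FPKM was used as deposited, with a pseudocount of 1 for log2 values, and no count model was run.

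Fragments behind a value were recovered from the values. The FPKM of 1 fragment on 1 kb was found from genes whose span may be their length and refined on 924 genes to 0.0643, 0.0608 and 0.0623. A member's length was the shortest at which every rat's fragments came out whole (within 0.005, plus a small allowance for the unit). The recovered lengths are 1371, 1888, 1179, 6487, 3520, 5804, 1992 and 1001 bp for Bax, Bak1, Bcl2, Bcl2l1, Bcl2l2, Bcl2l11, Bid and Bad. A multiple of a length would also give whole fragments, which matters most for Bcl2. PCR copies are not separate molecules, so intervals cover counting error only.

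The pairs test covers 28 pairs, not the 45 first planned, as 2 members were not analysed. The members, gene lists and markers were chosen with earlier results of these data known. Named genes were all members and, per list, the 2 with the highest mean and the 2 with the largest ratio of FPKM + 1. Some further pathway genes, 1 whole list included, are not reported here and are left out of the pathway counts, which shifts their shares. Motifs and windows shown were chosen after the values were seen. Alternatives were other pseudocounts, FPKM minima, scalings and role sums, and leaving out each rat; the pathway count between rats 19 and 70 and the all-gene medians without each rat were added after seeing the data. Python 3.11.15, numpy 2.4.6, pandas 2.3.3 and scipy 1.17.1 were used.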

Additional observations from a re-analysis of the deposited data

How the results depend on the processing

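Of 74 alternative values for the counts, ratios and spread, 65 moved by less than the limit set for them. For a ratio that limit was its SD over the rats, and for the spread it was the median SD of the members, 0.68. Leaving out 1 of 3 rats cannot move a mean ratio by its SD, so those means could not pass the limit. The spread without rat 35, 0.54 in place of 1.21, also counts as within it. The 65 are therefore no measure of stability. As a mean of log2(FPKM + 1) per role, effectors over protectors averaged 0.9995 in place of -0.24 (1.28 in place of 0.05 in rat 19, 0.071 in place of -1.51 in rat 70), and effectors over BH3-only genes 0.87 in place of 0.0011 (1.33, 0.69 and 0.59 in rats 19, 35 and 70); low genes such as Bcl2 and Bcl2l11 weigh there as much as abundant ones by construction. Without the gene of the highest mean FPKM in each role, effectors over BH3-only genes was 0.043 in rat 70, in place of -0.48. Leaving out 1 rat each gave 0 to 4 members over 2-fold apart, 0 without rat 35, against 4. The mean log2 ratio of effectors to protectors ranged from -0.73 (without rat 35) to 0.39 (without rat 70), that of BH3-only genes to protectors from -0.75 to 0.15 and that of effectors to BH3-only genes from -0.25 to 0.24. Pairs with a shared order numbered 17 to 25, 25 without rat 35. With a pseudocount of 0.1, 5 members and 49.3% of all genes were over 2-fold apart. Rescaling to a sum of 1000000 put the median gene at 4.34, 4.37 and 4.43 (log2), against 3.53, 3.53 and 3.48 as deposited. Rescaling without mitochondrial genes put it at 4.86, 4.67 and 4.85. No paired analysis was possible because there is 1 group. Depth limits Bcl2 most, at 21 to 48 fragments.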

Other observations

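Further BH3-only genes of the wider list, named here after their values had been seen, did not share 1 order of the rats. Bmf, a BH3-only gene, was at 3.95, 15.9 and 5.86 FPKM in rats 19, 35 and 70, with rat 35 highest as for Bcl2l11. Pmaip1, which encodes NOXA, was at 6.14, 11.6 and 12.04 FPKM. Bik was at 1.34, 2.41 and 0.07 FPKM, lowest in rat 70 as Bid was. The mitophagy genes differed from each other: Bnip3, a gene induced by low oxygen, was at 44.4, 11.7 and 46.3 FPKM and lowest in rat 35, where Bnip3l was highest at 43.8. The related gene Bcl2l13 was at 9.89, 10.1 and 16.5 FPKM, and Bcl2l14 at 1.02, 2.49 and 0.04 FPKM.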
